A study of Mus musculus with 2 samples.

Results

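The genes described here are 10 regulators of cell death from the BCL2 family, found by matching the Ensembl identifiers of the count table to the symbols Bcl2, Bcl2l1, Mcl1, Bcl2a1b, Bax, Bak1, Bid, Bcl2l11, Bbc3 and Pmaip1. They are 10 of the 49585 gene identifiers in the table, and the other 17 genes of the family that were looked up serve for comparison. Messenger RNA was sequenced from CD11b+ cells, the myeloid cells that carry the integrin Itgam, taken with magnetic beads from digested subcutaneous tumours. The tumours arose from pancreatic cancer cell lines of the mouse, implanted in the right flank of BL6-background animals. All animals had floxed Nrp2 alleles together with a Cre driven by the Csf1r promoter, inducible by tamoxifen (NRP2f/flCSF1R-iCRE). That promoter is active in monocytes and macrophages, so other CD11b+ cells may keep the gene.

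The control group gave 1 library, and the test group, dosed every day with intraperitoneal tamoxifen from the time its tumours could be felt, gave another, called the knockout library here. The labels name no tamoxifen for the control animals, so drug and deletion cannot be told apart. Tumours were taken at 15 days, and RNA of 3 animals was pooled into each library, so replicates are lacking, no p-value is given and differences between animals have no estimate. Nrp2, the gene targeted, counted 9686 reads in control against 1017 in knockout, 9.71-fold lower (6.95 to 13.9). Levels are in CPM, the reads of a gene relative to the scaled library size, and the bracketed ranges are 95% exact intervals of the value they follow, a ratio of knockout over control or, after "-fold lower", of control over knockout, that cover counting error only. They were computed on reads divided by 47 in the control and 24 in the knockout library, an estimate of how many reads 1 captured RNA fragment gave, so they are wider than the read counts alone would give. The libraries held 64153676 and 68554172 reads, and a count of 0 leaves room for 3 fragments (141 control or 72 knockout reads). In cells pulled from whole tumours, fewer cells of a type and less RNA per cell cannot be told apart.

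BCL2 family proteins decide whether the outer mitochondrial membrane stays closed. The effectors BAX and BAK form pores in it that release cytochrome c and start the caspases, the pro-survival members bind and hold the effectors, and the BH3-only members either occupy the pro-survival members or activate the effectors directly. In myeloid cells MCL1 and the A1 protein encoded by the Bcl2a1 genes are known as survival factors of granulocytes, while BCL2 is better known from lymphocytes.

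One member cannot be read alone, because mouse Bcl2a1 exists in near-identical copies. The first 120 coding bases of the 3 full-length copies are shown since they make plain how few positions can tell a read of one from a read of another. Capitals mark the 7 positions at which the 3 differ. Sequences are 5′ to 3′ along the coding strand, from GENCODE M21 on GRCm38.
Bcl2a1a, chr9:88957051-88957170, plus strand: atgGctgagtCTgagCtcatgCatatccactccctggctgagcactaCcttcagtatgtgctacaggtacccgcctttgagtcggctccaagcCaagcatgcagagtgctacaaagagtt
Bcl2a1b, chr9:89199360-89199479, plus strand: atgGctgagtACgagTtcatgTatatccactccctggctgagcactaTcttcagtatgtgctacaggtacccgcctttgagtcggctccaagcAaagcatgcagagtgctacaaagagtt
Bcl2a1d, chr9:88731600-88731719, minus strand: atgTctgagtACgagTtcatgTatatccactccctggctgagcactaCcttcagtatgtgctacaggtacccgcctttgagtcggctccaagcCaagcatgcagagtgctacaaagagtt
Over the whole coding sequence of 516 bases, Bcl2a1b differed from Bcl2a1a at 11 bases (97.9% identity) and from Bcl2a1d at 6 (98.8%). The longest stretch without a difference was 217 bases in both pairs. Of the 768 windows of 50 bases in the Bcl2a1b transcript, 160 (20.8%) occurred in no other gene. For Mcl1, Bcl2l1, Bbc3 and Pmaip1 that share was 100%, for Bcl2l11 99.8% and for Bcl2 93.3%. It was 86.2% for Bax, 81.8% for Bak1 and 75.5% for Bid, whose exons overlap Gm45808, Ggnbp1 and Bcl2l13. Whether counting used the strand or dropped reads that match several genes is not stated in the sources used here, so counts of Bcl2a1b, and to a lesser degree of these 3 genes, are uncertain.

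The 10 genes differed far more from each other than between the libraries. Compared per kilobase of exon, Mcl1 stood highest at 464 CPM per kb in the control and 578 in the knockout library. Bcl2a1b followed at 170.1 and 152, then Bak1 at 54.3 and 46.3 and Pmaip1 at 51.3 and 41.1. Bax was at 37.5 and 33.6 CPM per kb, Bcl2l1 at 17.9 and 21.9, Bcl2l11 at 9.57 and 11.5, and Bid at 7.13 and 7.35. Bcl2 (1.77 and 1.17) and Bbc3 (1.63 and 2.97) were lowest. The order was the same in both libraries apart from these last 2 genes, which changed places. The levels of Bak1 and Pmaip1, and of Pmaip1 and Bax, had overlapping intervals in each library. In the control library those of Bcl2l11 and Bid, and of Bcl2 and Bbc3, overlapped too.

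**Figure D1:**
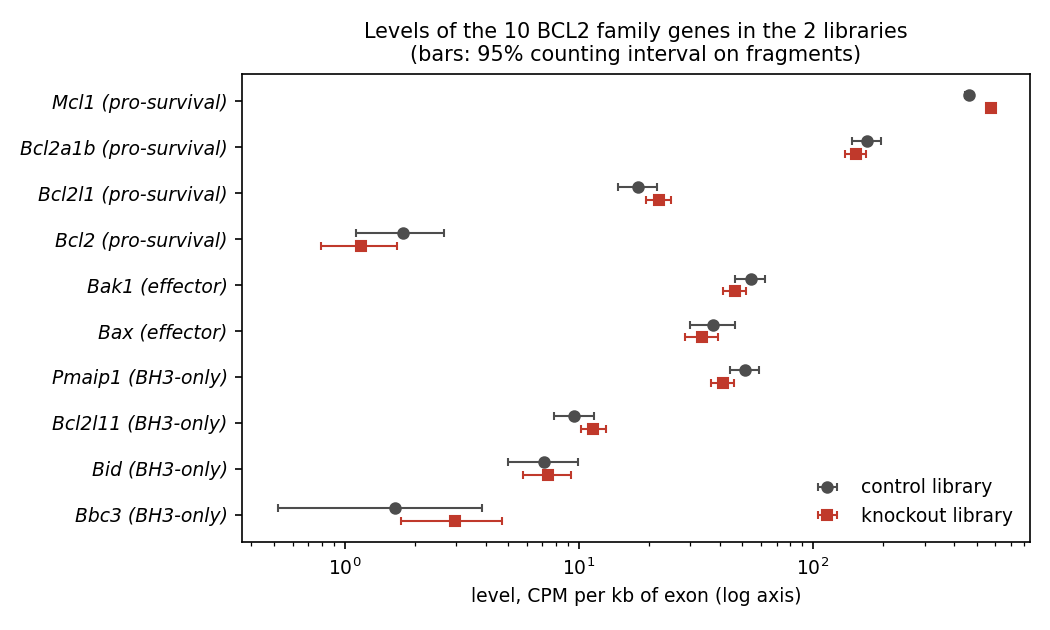
Level of each of the 10 genes in the control library (circles) and the knockout library (squares), in CPM per kb of exon on a log axis, with 95% counting intervals as bars and 1 pooled library per group. Mcl1 lies above all others at 464 and 578 CPM per kb, and Bcl2 and Bbc3 lie below 3 CPM per kb in both libraries.

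No member was at least 2-fold higher or lower in the knockout library. All 10 had at least 50 reads over both libraries, and among the 14420 genes with that many reads, 8.22% reached 2-fold on the higher side and 12.1% on the lower. The 14420 genes include some under the floor in both libraries, and among the 12451 that were not, 8.34% were higher and 8.54% lower. Among the 9054 genes with at least 1000 reads, a class that holds 9 of the members, the shares were 4.5% higher and 4.02% lower. At 1.5-fold, Bbc3 was higher and Bcl2 lower, 1 member each way. The background for that limit was 17.3% higher and 20.5% lower over genes with at least 50 reads, and 14.6% and 11.3% over those with at least 1000. Of the 9 well-read members, the interval lay wholly above 1 for 1 (Mcl1) and wholly below 1 for 1 (Pmaip1), where 18.7% and 15.2% of all well-read genes did so. The members' counts are near or below these shares of all genes.

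The ratios of the 10 genes fell on both sides of 1, 5 above and 5 below. Their median log2 ratio was -0.06, with a range from -0.60 for Bcl2 to 0.86 for Bbc3. Over the well-read genes of the table the median was 0.04, and the quartiles of those ratios were 0.825 and 1.295. The median size of the log2 ratio, regardless of sign, was 0.28 for the members and 0.33 for all well-read genes.

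**Figure D2:**
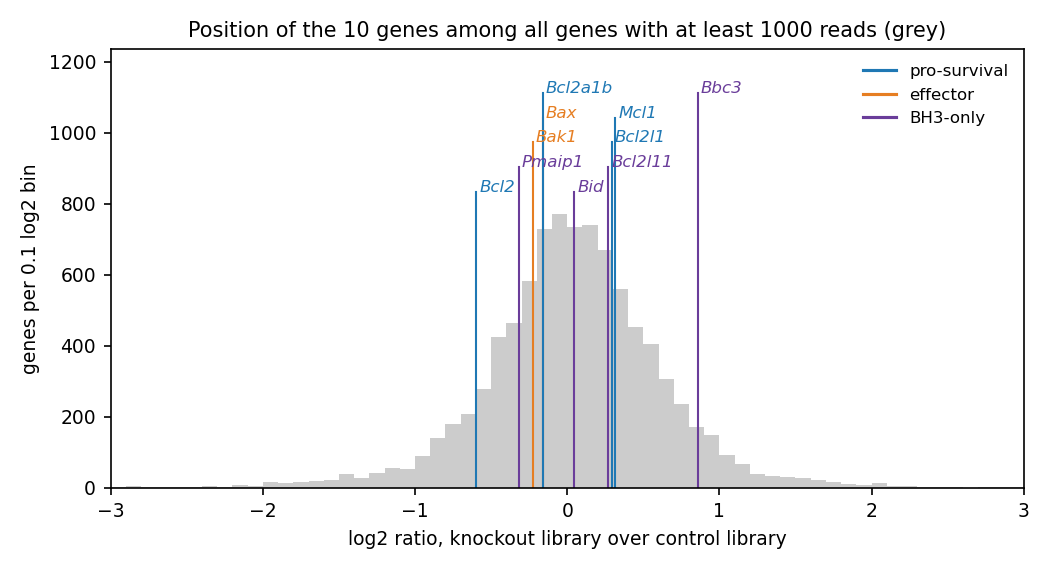
Number of genes with at least 1000 reads in each 0.1-wide bin of the log2 ratio, knockout over control library (grey bars), with the ratio of each of the 10 genes as a coloured line whose height has no meaning. The 10 lines run from -0.60 (Bcl2) to 0.86 (Bbc3) and lie within the bulk of the grey distribution, and genes beyond 3 on either side are not drawn.

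Among the pro-survival genes, Mcl1 was higher and Bcl2 lower in the knockout library, and only Mcl1 had an interval clear of 1. Mcl1 (GRCm38 chr3:95658788-95663176, plus strand) encodes a short-lived protein that holds BAK and captures BIM and NOXA. Its reads numbered 104137 in control and 132344 in knockout, which is 1586 and 1976 CPM. The ratio was 1.25 (1.19 to 1.31), the tightest of the 10, resting on about 2216 and 5514 fragments. Mcl1 was a small difference in a highly expressed gene, and its log2 ratio stayed between 0.25 and 0.34 under every scaling and trend correction tried.

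Bcl2l1 (chr2:152780668-152831728, minus strand) encodes BCL-XL, which holds both BAX and BAK. It had 5392 and 6740 reads, which is 82.1 and 101 CPM, with a ratio of 1.23 (0.983 to 1.54). Gene counts do not separate its long and short splice forms. Bcl2a1b (chr9:89199209-89207827, plus strand) had 9122 and 8330 reads, 139 and 124 CPM, with a ratio of 0.895 (0.749 to 1.07), and its log2 ratio turned from -0.16 to 0.03 once a trend on GC content and length was removed.

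Bcl2 (chr1:106538178-106714274, minus strand), the founding member of the family, had 1066 and 719 reads. Its level was 16.2 CPM in the control and 10.7 CPM in the knockout library, 1.51-fold lower with an interval of 0.837 to 2.70. That interval, computed on reads divided by reads per fragment, spans no difference. On that estimate the lower value of Bcl2 was not separable from counting error. On undivided reads, which take every read as a separate fragment, the interval of the ratio was 0.601 to 0.727. Lymphocyte markers were lower in the same library. The summed level of the T cell markers was 235 CPM in the control and 76.4 CPM in the knockout library, where 13 of 14 were lower by 2-fold or more and none was at 0. The B cell markers summed to 209.7 and 22.3 CPM, with all 4 of those above the floor in either library at least 2-fold lower and Pax5 and Blk at 0 in the knockout library. The NK cell markers summed to 136 and 45.3 CPM, with 5 of the 6 above the floor in either library at least 2-fold lower. Their part in the Bcl2 value was not tested.

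The other copies of Bcl2a1 were lower by more than Bcl2a1b was. Bcl2a1a had 5372 and 3032 reads, or 81.8 and 45.3 CPM, 1.81-fold lower (1.39 to 2.35). Bcl2a1d had 8762 and 3328 reads, or 133 and 49.7 CPM, 2.69-fold lower (2.14 to 3.37), and as a ratio its interval (0.297 to 0.466) did not overlap that of Bcl2a1b. Bcl2a1c had 55 and 28 reads, under the floor of both libraries, and gets no fold. Summed over the 4 copies, which does not depend on how counted reads were split among them, the level was 355 CPM in the control and 219.7 CPM in the knockout library. The sum was 1.62-fold lower (1.43 to 1.82), a log2 ratio of -0.69 where Bcl2a1b alone gave -0.16. Of the reads of all 4 copies, Bcl2a1b took 39.1% in control and 56.6% in knockout. A predicted gene, Gm29094, covers 401 exonic bases of Bcl2a1b (49.1% of its exon length) on the same strand and was counted with 0 and 5 reads. Reads in the overlap were thus hardly credited to Gm29094. If they were dropped for Bcl2a1b as well, its levels per kb, which use the full exon length, are too low.

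**Figure D3:**
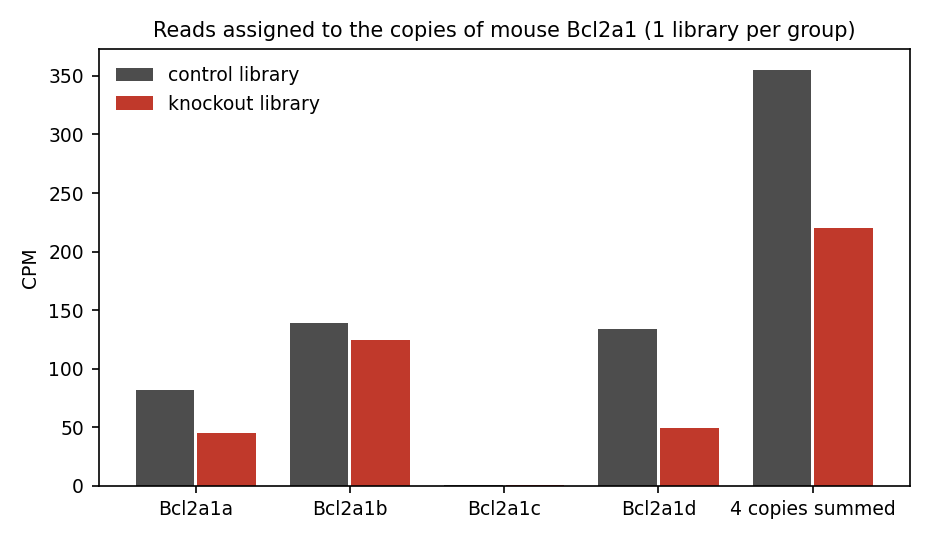
CPM assigned to each of the 4 Bcl2a1 copies and to their sum in the control library (grey bars) and the knockout library (red bars), 1 pooled library per group and no error bars. Bcl2a1b stands at 139 and 124 CPM, while Bcl2a1d stands at 133 and 49.7 CPM and the sum at 355 and 219.7 CPM.

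Of other cells that express A1, conventional dendritic cells had lower markers in the knockout library, while the neutrophil markers went both ways. The conventional dendritic cell markers summed to 559 and 191 CPM, with 8 of 10 at least 2-fold lower and Xcr1 at 0 in the knockout library. The neutrophil markers summed to 1455 and 1491 CPM, with 3 of the 12 with enough reads at least 2-fold higher and 1 lower. The lower one was Mmp9, at 389 and 128 CPM, and the sums per kilobase were 1589 and 1949 CPM per kb. Intervals lay above 1 for 5 and below 1 for 2 of the 10 well-read neutrophil markers, beside 18.7% and 15.2% of all well-read genes. Of the neutrophil list, Ly6g, Camp, Elane and Mpo were at 0 in the control library and Mpo also in the knockout library. The part of these cells in the Bcl2a1 values was not tested. The 10 CD11b+ myeloid markers were present in both libraries, summing to 20728 and 23534 CPM with none past 2-fold, and Itgam itself was at 294 and 422 CPM. The macrophage markers summed to 26393 and 33182 CPM (1 of 10 at least 2-fold higher, 0 lower) and the monocyte markers to 1982 and 7109 CPM (2 of the 8 above the floor higher, 4 lower), with Chil3 making up most of the latter sum in the knockout library only. Summed levels of the other lists in control and knockout were 267 and 96.5 CPM for eosinophils, 32.5 and 32.4 for mast cells, 326 and 197 for fibroblasts, 89.5 and 22.6 for endothelium and 13.5 and 115 for adipocytes.

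Both effector genes were slightly lower in the knockout library, by less than the counting error. Bak1 (chr17:27019810-27029009, minus strand) encodes the effector that sits in the mitochondrial membrane. It had 8577 and 7473 reads, 131 and 112 CPM, and its ratio was 0.854 (0.709 to 1.03), with an upper end of 0.991 under upper-quartile scaling and 0.984 with total counts. Bax (chr7:45461697-45466898, minus strand) encodes the effector that moves there from the cytosol. It had 3884 and 3543 reads, 59.2 and 52.9 CPM, with a ratio of 0.894 (0.678 to 1.19). The proportions within the class hardly moved, with Bak1 at 59.1% of the summed effector level per kb in the control and 58.0% in the knockout library.

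The BH3-only genes did not move together. Pmaip1 encodes NOXA, which binds MCL1 and A1 and speeds the loss of MCL1. It counted 9205 reads in control and 7526 in knockout, 140.2 and 112 CPM, for a ratio of 0.801 (0.668 to 0.963). It was the one member whose interval lay below 1, and with the assumed reads per fragment doubled the upper end was 1.04. Bcl2l11 (chr2:128126038-128162547, plus strand) encodes BIM, which binds every pro-survival protein and is a main killer of surplus blood cells. It had 5045 and 6210 reads, 76.8 and 92.7 CPM, with a ratio of 1.21 (0.960 to 1.53).

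Bid (chr6:120891930-120916853, minus strand) encodes the protein that caspase-8 cleaves to link death receptors to mitochondria. It was at 25.3 and 26.1 CPM from 1661 and 1749 reads, a ratio of 1.03 (0.682 to 1.59). Its direction is not fixed, since upper-quartile scaling and total counts gave log2 ratios of -0.01 and -0.02 in place of 0.05. Bbc3 (chr7:16308393-16318205, plus strand) encodes PUMA, a p53-induced killer that also binds every pro-survival protein. It had 228 reads in the control and 422 in the knockout library, 3.47 and 6.30 CPM, for a ratio of 1.81. That ratio rests on about 4.85 and 17.6 fragments, and its interval of 0.640 to 6.40 holds both a fall and a rise.

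**Figure D4:**
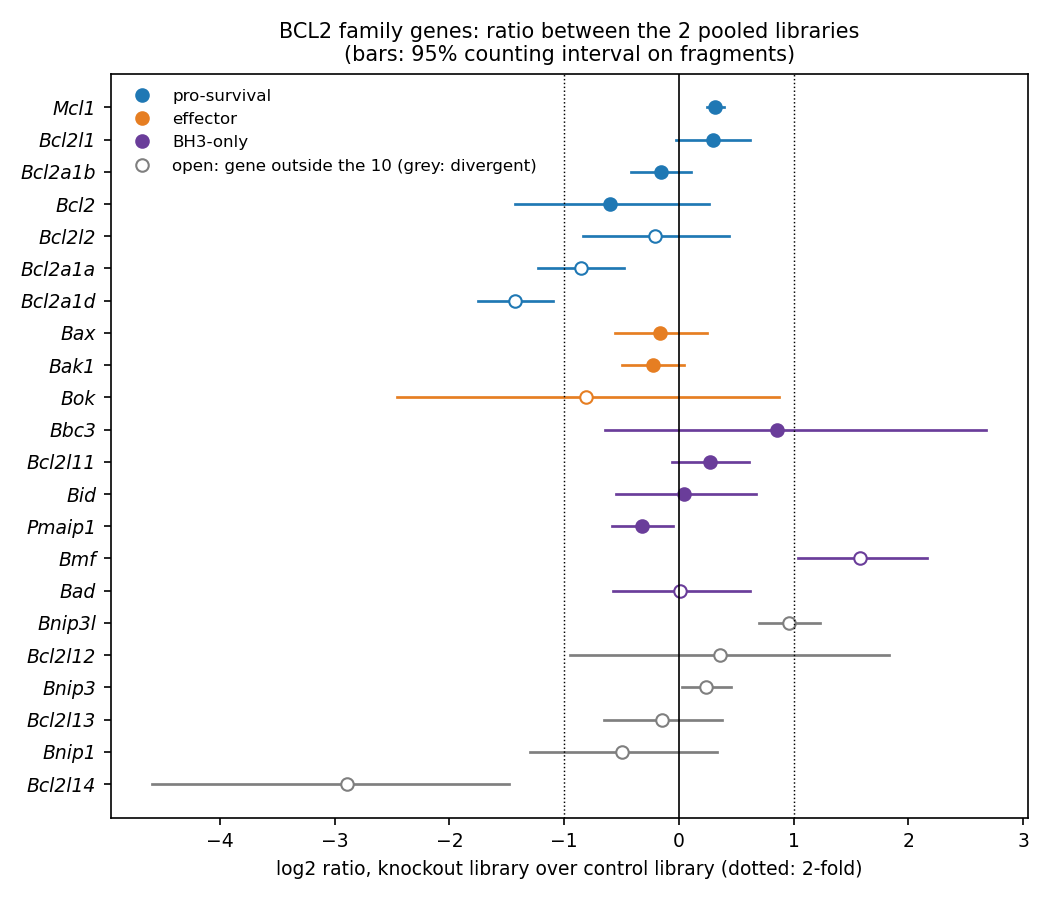
Log2 ratio of each BCL2 family gene, knockout over control library, with 95% counting intervals as bars, filled points for the 10 members and open points for other family genes, coloured by class, and dotted lines at 2-fold. Of the filled points only Mcl1 and Pmaip1 have bars clear of 0, and Bmf, Bcl2a1d and Bcl2l14 lie past 2-fold. Family genes with under 60 reads in each library are not drawn.

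Summed per kilobase, pro-survival messages outweighed the other classes in both libraries, and Mcl1 made up most of them. The 4 pro-survival members added up to 654 CPM per kb in the control and 753 in the knockout library, a ratio of 1.15. Mcl1 was 71.0% of that sum in the control and 76.7% in the knockout library. Without Mcl1 the remaining 3 genes summed to 189.7 and 175 CPM per kb, a ratio of 0.924, and on summed CPM the ratio of these 3 was 0.993 with an interval of 0.869 to 1.14 that spans 1. With all 4 Bcl2a1 copies in the class the sum was 910.2 and 867 CPM per kb, a ratio of 0.953, and the direction turned on this scale. On summed CPM, where the short Bcl2a1 genes weigh less, the same class stayed above 1, at 1.13 (1.082 to 1.182).

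The effectors summed to 91.8 and 79.9 CPM per kb, a ratio of 0.870. The BH3-only genes summed to 69.7 and 63.0 CPM per kb, a ratio of 0.904. Relative to the sum of the 4 pro-survival members, effector messages were 14.04% in control and 10.6% in knockout, and BH3-only messages 10.7% and 8.36%. That sum counts Bcl2a1b alone of the Bcl2a1 copies. With all 4 copies the pro-survival sum was 910.2 CPM per kb in control and 867 in knockout. On that sum these percentages would be lower and differ less between the libraries. Within the BH3-only class Pmaip1 was 73.7% of the sum in the control and 65.3% in the knockout library, Bcl2l11 13.7% and 18.3%, Bid 10.2% and 11.7%, and Bbc3 2.35% and 4.71%. On summed CPM, the ratio was 1.21 (1.16 to 1.27) for the pro-survival class, 0.866 (0.743 to 1.01) for the effectors and 0.966 (0.847 to 1.10) for the BH3-only class. Median log2 ratios by class were 0.07, -0.19 and 0.16 in the same order, beside 0.04 over all well-read genes. The median and the sum differ in direction for the BH3-only class, where the most abundant gene, Pmaip1, was the lower one. These sums are of messenger RNA and say nothing of protein amounts.

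Among the 17 other family genes, 14 had at least 50 reads, 1 of them past 2-fold on the higher side and 2 on the lower, with a median log2 ratio of -0.18. These counts are close to the shares over all genes with that many reads, 8.22% higher and 12.1% lower. The genes past 2-fold were all among the 10 with at least 1000 reads. Over all genes with that many reads, 4.5% were higher and 4.02% lower, so in that class the counts lie above the shares, on few genes. Bmf (chr2:118528757-118549687, minus strand) encodes a BH3-only protein released from the cytoskeleton in detached cells. It had 1519 reads in the control and 4627 in the knockout library, 23.1 and 69.1 CPM, and was 2.98-fold higher (2.05 to 4.48). The lower end of the Bmf interval was 1.97 under upper-quartile scaling and 1.96 with total counts, just short of 2-fold.

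Bcl2l14 (chr6:134396318-134438736, plus strand), a divergent family member, had 949 and 130 reads, 14.5 and 1.94 CPM. It was 7.42-fold lower in the knockout library (2.79 to 24.1), and the other gene past 2-fold on the lower side was Bcl2a1d. Bnip3l, a receptor for the removal of mitochondria by autophagy, was at 107 and 208 CPM, a ratio of 1.94 (1.62 to 2.34). Its relative Bnip3, with a ratio of 1.18 (1.02 to 1.37), shares 50-base windows with pseudogenes and only 37.6% of its windows occur in no other gene. The BH3-only gene Bad had 1730 and 1779 reads, a ratio of 1.01 (0.670 to 1.54), and the pro-survival gene Bcl2l2 a ratio of 0.864 (0.561 to 1.35).

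Bok, the remaining effector, had 334 and 194 reads, a ratio of 0.570 with a wide interval of 0.182 to 1.83. The divergent genes Bcl2l12, Bcl2l13 and Bnip1 had ratios of 1.28 (0.518 to 3.55), 0.905 (0.637 to 1.298) and 0.710 (0.406 to 1.26). Bik had 0 and 49 reads and Bcl2l15 0 and 59, under the floors of 141 and 72 reads, so no difference was detectable at this depth. Hrk and Bcl2l10 had 0 reads in both libraries, which allows up to 141 reads in the control and 72 in the knockout library.

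The rest of the mitochondrial death pathway was described from 6 lists holding 51 genes, 48 of them with at least 50 reads. Over these, 2 passed 2-fold on the higher side and 2 on the lower, with a median log2 ratio of -0.04. Both counts are below the shares over all genes with at least 50 reads, 8.22% and 12.1%. Of the 48 genes, 46 had at least 1000 reads, among them all those past 2-fold. Over all genes with that many reads the shares were 4.5% and 4.02%, and the counts are close to these. Of the 46 well-read genes the interval lay above 1 for 8 and below 1 for 8, close to the 18.7% and 15.2% of all well-read genes.

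None of the 5 genes listed as BAX and BAK partners, whether or not they bind them, passed 2-fold (median log2 ratio 0.03). The most read was Tmbim6, known as BAX inhibitor 1, at 863 and 739.6 CPM and 1.17-fold lower (1.09 to 1.25). None of the 7 measured genes for the turnover of MCL1 protein passed either (median 0.17), and the most read, the ERK phosphatase Dusp6, had a ratio of 1.13 (0.961 to 1.33). Of the 13 genes of the apoptosome and caspases, 0 passed 2-fold (median -0.12), with the inhibitor of apoptosis gene Birc3 at 171 and 195 CPM, a ratio of 1.14 (0.978 to 1.33). Of the 8 genes of the death receptor route to BID, 0 passed (median -0.36), and the TNF receptor gene Tnfrsf1a was at 259 and 260.3 CPM, a ratio of 1.01 (0.886 to 1.15). The most read genes do not stand for their lists. Intervals lay above 1 for 3 and below 1 for 0 of the 7 well-read MCL1 turnover genes. For the 7 well-read death receptor genes these counts were 0 and 2, for the 5 genes listed as partners 0 and 2, and for the 13 apoptosome and caspase genes 2 and 1. Over all well-read genes the shares were 18.7% and 15.2%.

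The genes past 2-fold lay in the list of inducers of BH3-only genes and the list of p53 targets. The inducer list also holds Mdm2, which acts against p53, and Trp53inp1, which p53 induces. Ddit3, which encodes the endoplasmic reticulum stress factor CHOP, had 979 reads in the control and 3781 in the knockout library, 14.9 and 56.4 CPM. It was 3.78-fold higher (2.39 to 6.30). Trp53inp1, a stress protein gene induced by p53, had 1877 and 4462 reads and was 2.33-fold higher (1.65 to 3.37). Trp53 itself had 2870 and 1345 reads, 43.7 and 20.1 CPM, and was 2.18-fold lower (1.49 to 3.19). These were 2 higher and 1 lower of the 7 measured genes of the inducer list, with a list median of 0.04. All 7 had at least 1000 reads. Over all genes with that many reads 4.5% were higher and 4.02% lower, so the counts lie above the shares, on few genes. Mdm2, the most read gene of the list, encodes a ligase that degrades p53 and had a ratio of 1.41 (1.16 to 1.73).

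Of the 9 measured genes in the list of p53 targets, 0 were at least 2-fold higher and 1 was lower, with a list median of -0.19. Over all genes with at least 50 reads the shares were 8.22% higher and 12.1% lower. The p53 target list leaves out Trp53inp1 and Mdm2, which p53 also induces. With them the counts were 1 higher and 1 lower of 11, near these shares. The lower one was Perp, a membrane protein gene also active in epithelia, with 896 and 267 reads, 3.42-fold lower (1.55 to 7.93). The epithelial tumour cell markers summed to 196 and 129 CPM, with 3 of the 8 measured at least 2-fold lower, Cldn4 at 0 in both libraries and Sox9 at 0 in the knockout library. Their part in the Perp and Bcl2l14 values was not tested. Cdkn1a, which encodes the cell cycle inhibitor p21, was at 579.7 and 560.0 CPM, a ratio of 0.966 (0.887 to 1.05). The cell cycle list summed to 398 and 269 CPM, with 10 of 14 genes at least 2-fold lower and none at 0, and its part in the Trp53 value was not tested. Trim17, Trp73 and Eda2r had 0 reads in the control library and fewer than 72 in the knockout library.

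**Figure D5:**
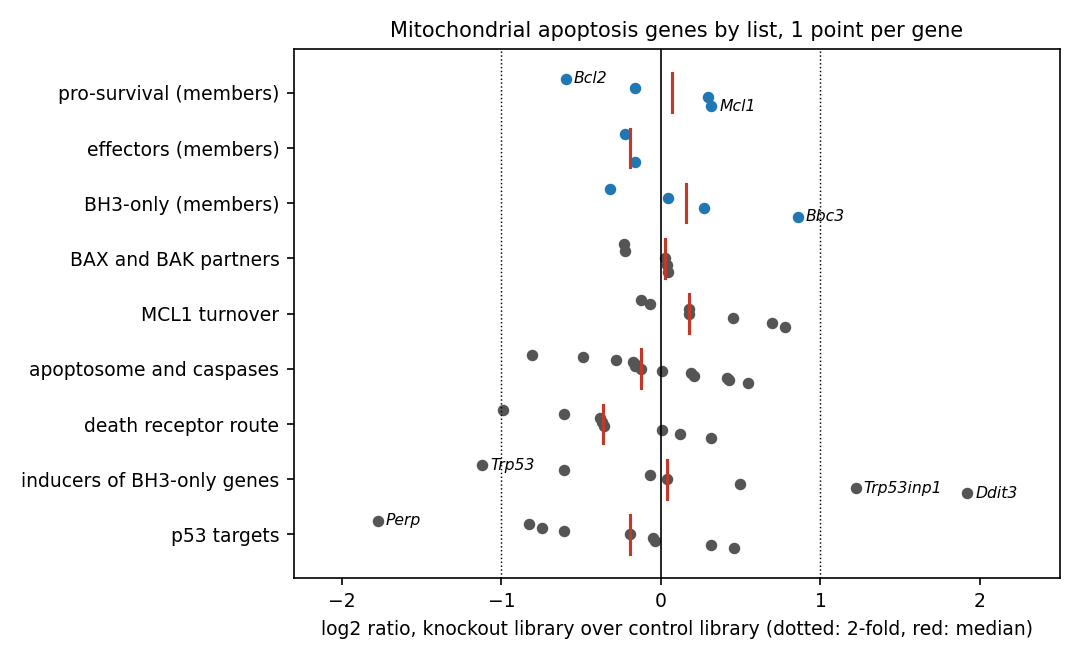
Log2 ratio, knockout over control library, of the 10 members by class (blue) and of the 48 other pathway genes with at least 50 reads by list (grey), 1 point per gene in each list, with red bars at the list medians and dotted lines at 2-fold. Tnfrsf10b is in the lists of the death receptor route and of p53 targets and is drawn in both. The members lie between -0.60 and 0.86, and past the dotted lines lie Ddit3 and Trp53inp1 on the higher side and Trp53 and Perp on the lower side.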

How the data were processed

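Per the labels' protocols, the kit was TruSeq stranded mRNA. The submitters' processing notes name cutadapt, HISAT2, featureCounts and GRCm38; for versions, options and annotation release the sources used here give nothing. The count table the authors deposited gives raw reads for each Ensembl identifier, from read 1 per the file headers. Their deposited comparison table holds normalised values (a signal), a log2 fold change with its error, a score and a p-value per gene; of it only the log2 fold changes were read. In the authors' deposited table these had the same sign as the ratios here for 10 of 10 members. No molecular identifiers are named, so duplicates count as reads.

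Of 49585 gene identifiers, 49326 matched GENCODE M21, which gave coordinates, exon lengths and sequences, and 259 did not. Counts were scaled with TMM factors (edgeR 4.0.16, R 4.3.3), 1.02 (control) and 0.977 (knockout). Ratios used a prior of 0.5 counts. Intervals are Clopper-Pearson intervals (scipy 1.17.1, Python 3.11.15) on reads divided by reads per fragment. That divisor is the median count of genes that had 0 reads in the other library and over 4 in this one (867 and 2114 genes). The calculation was tested on simulated fragments that all had this number of reads, so the test does not check the divisor itself. Genes at 0 in one library were held at the floor of 3 fragments. Levels per kb use the union of a gene's exons. Alternatives were the size factors of DESeq2 1.42.0, upper-quartile factors, total counts, a prior of 5 counts, a trend correction on GC content and length, other limits and summed Bcl2a1 copies.

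The members and gene lists were chosen with earlier results of these data known. Named are all members and other family genes, list genes past 2-fold with 200 reads or more in whichever library was higher, the most read gene of each list, and Nrp2. Protein sequences were not used here, and a planned comparison of protein motifs was replaced by one of the Bcl2a1 coding sequences.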

Additional observations from a re-analysis of the deposited data

How the results depend on the processing

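Of 99 values recomputed under alternatives, 94 kept within the limits set for them and 5 moved. The limits allowed changes of sign, so the 94 are no measure of fixed direction. They include Bid under upper-quartile scaling (-0.01) and total counts (-0.02), Bcl2a1b without the trend, and the pro-survival median with copies summed. The interval count of 3 and the 3682 genes given below are also among the 94. With the reads of the Bcl2a1 copies summed, the log2 ratio of Bcl2a1b became -0.69 and the ratio of the summed pro-survival level became 0.953. At a limit of 1.5-fold, 2 members passed in place of 0. The count of members whose interval excluded 1, which was 2, became 1 with the reads per fragment doubled, where Pmaip1 dropped out, and 9 on undivided reads, where only Bid stayed out. It was 3 under upper-quartile scaling and total counts, which added Bak1. Removing a trend on GC content and length turned Bcl2a1b from -0.16 to 0.03. The pro-survival median, 0.07, became -0.15 with copies summed, -0.0003 under total counts and, in an alternative chosen after seeing the data, 0.29 without Bcl2a1b. With genes at 0 fitted by the prior alone, also chosen after seeing the data, 3682 genes in place of 2937 passed 2-fold. The 3 other scalings moved the median log2 ratio of the well-read genes from 0.04 to between -0.03 and 0.05. No paired analysis was possible because each group has 1 library. Without replicates, differences between animals have no measured size. For Bbc3 and Bcl2 even counting error, on reads divided by reads per fragment, spans no difference.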
